A study of Mus musculus with 12 samples.

Results

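The ribosomal protein genes of the panel, chosen by a symbol that begins with Rpl or Rps and continues with a digit, were 9 of the 770 genes measured. They were Rpl28, Rpl29, Rpl36al and Rpl9, which encode proteins of the large ribosomal subunit, and Rps2, Rps3, Rps9, Rps10 and Rps21, which encode proteins of the small subunit. Their RNA was measured in sorted mouse microglia with the nCounter Neuroinflammation panel, a hybridization assay that counts molecules carrying a colour-barcoded probe without amplification. Of 12 samples, 4 held P-ERK1/2 High and 4 held P-ERK1/2 Low microglia of aged mice, and 4 held microglia of adult mice without such a split. The aged groups are called High and Low below. One of the adult samples, number 11, is labelled as excluded for poor quality and is given apart, which leaves 3 adult samples. The sample labels give the mice as C57B6 without treatment, adult at 12 to 20 weeks and aged at over 80 weeks, and each sample pooled the central nervous system of 1 male and 1 female. Microglia were enriched with CD11b beads, fixed, permeabilized, and gated as CD45 intermediate, Ly6G negative and positive for a YFP reporter. The study describes its mice differently, as hemizygous for Cx3cr1-CreERT2 on a C57BL/6 background and given tamoxifen, recently in adult and long before in aged mice. There the YFP reporter was driven by Cx3cr1, so the gate rested on cells in which that promoter had been active. As the antibody against phosphorylated ERK1/2 defined the aged groups and the adult cells were not split by it, a comparison with adult differed in age, in sorting and, by that description, in the time since tamoxifen.

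Ribosomal proteins assemble with ribosomal RNA into the small subunit, which reads the messenger RNA, and the large subunit, which joins the amino acids. Cells make these proteins in matched amounts, and growth signalling through PI3K, AKT and mTOR and through ERK1/2 is known to raise their synthesis. Many of their transcripts begin with a run of pyrimidines, the terminal oligopyrimidine motif, through which mTOR signalling controls how well they are translated. In microglia, as in other macrophages, activation is known to go with changes in protein synthesis.

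The starts of the genes are shown because the 9 genes share a function and had deposited values that differed in opposite directions between the groups. A RefSeq promoter sequence was found for 8 of the 9 genes, with none for Rpl29. In 5 of these 8 genes, a run of at least 6 bases that are all C or T began no further than 5 bases after an annotated start and ended no further than 5 bases before it, read on the transcribed strand only. The same was found in 24.0% of the 27025 genes with a promoter sequence. The lines below run from 40 bases before the annotated start through the next 20 bases in the RefSeq annotation of GRCm38.p6, with this pyrimidine run in capitals, and are written on the transcribed strand.
Rpl28: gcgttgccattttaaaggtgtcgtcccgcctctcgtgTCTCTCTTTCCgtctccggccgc
Rps9: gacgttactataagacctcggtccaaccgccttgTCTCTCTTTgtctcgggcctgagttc
Rps10: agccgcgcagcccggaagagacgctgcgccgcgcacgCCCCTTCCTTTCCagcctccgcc
Rpl9: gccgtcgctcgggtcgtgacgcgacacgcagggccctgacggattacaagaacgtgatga
The windows lie at chr7:4792925-4792984 on the plus strand for Rpl28, chr7:3704001-3704060 on the plus strand for Rps9, chr17:27635225-27635284 on the minus strand for Rps10 and chr5:65391412-65391471 on the minus strand for Rpl9. Rpl28 carried a run of 11 bases and Rps10 a run of 13 bases, and the 2 genes differed in opposite directions between the aged groups in the deposited values. Rpl9 had no such run at this start, and its values went the same way as those of Rps10. Rps2 also carried a run, of 6 bases. Rps21 carried one of 7 bases at the first of its 2 annotated starts and none at the second, and Rpl36al and Rps3 had none in this window. Whether such a run bears on the amount of RNA was not tested.

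Depth differed by group. The recovered counts over all genes summed to 650965 to 1539936 in High, 123798 to 157209 in Low, 137980 to 326575 in the 3 kept adult samples and 1464449 in adult sample 11. Background, set at the mean plus 2 SD of the 8 negative control probes of a sample, was 20.6 to 41.9 counts. The geometric mean of the positive control probes was 286 in adult sample 11 and 954 to 1460 in the other samples. In every sample, 8 of the ribosomal protein genes were above background. Rps3 was the exception, above background in 4 of 4 High, 0 of 4 Low and 1 of 3 adult samples. In depth adult sample 11 went with High, against its label. Depth and group could not be told apart for High, and in such bulk samples neither could fewer cells and less RNA per cell.

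Within the 9 genes, High microglia differed from Low microglia in both directions. In the deposited values, which are scaled to 13 housekeeping genes, Rpl28, Rpl29, Rpl36al and Rps2 were called higher and Rpl9 and Rps10 were called lower, the last pair turning positive in counts with no scaling. A gene was called where limma on log2(value + 1) gave a p under 0.01 and the log2 difference passed 1 in size. The 4 genes called higher stood beside 28.2% of all 770 genes called higher, and the 2 called lower beside 9.61% called lower. The log2 fold changes of the 9 genes spread from -1.53 to 2.06, and their median of 0.78 stood beside a median of 0.26 over all genes. The values of 4 genes were higher in every High sample than in any Low sample, as in 31.3% of all genes, and those of 2 genes were lower in every sample, as in 18.1%.

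**Figure D1:**
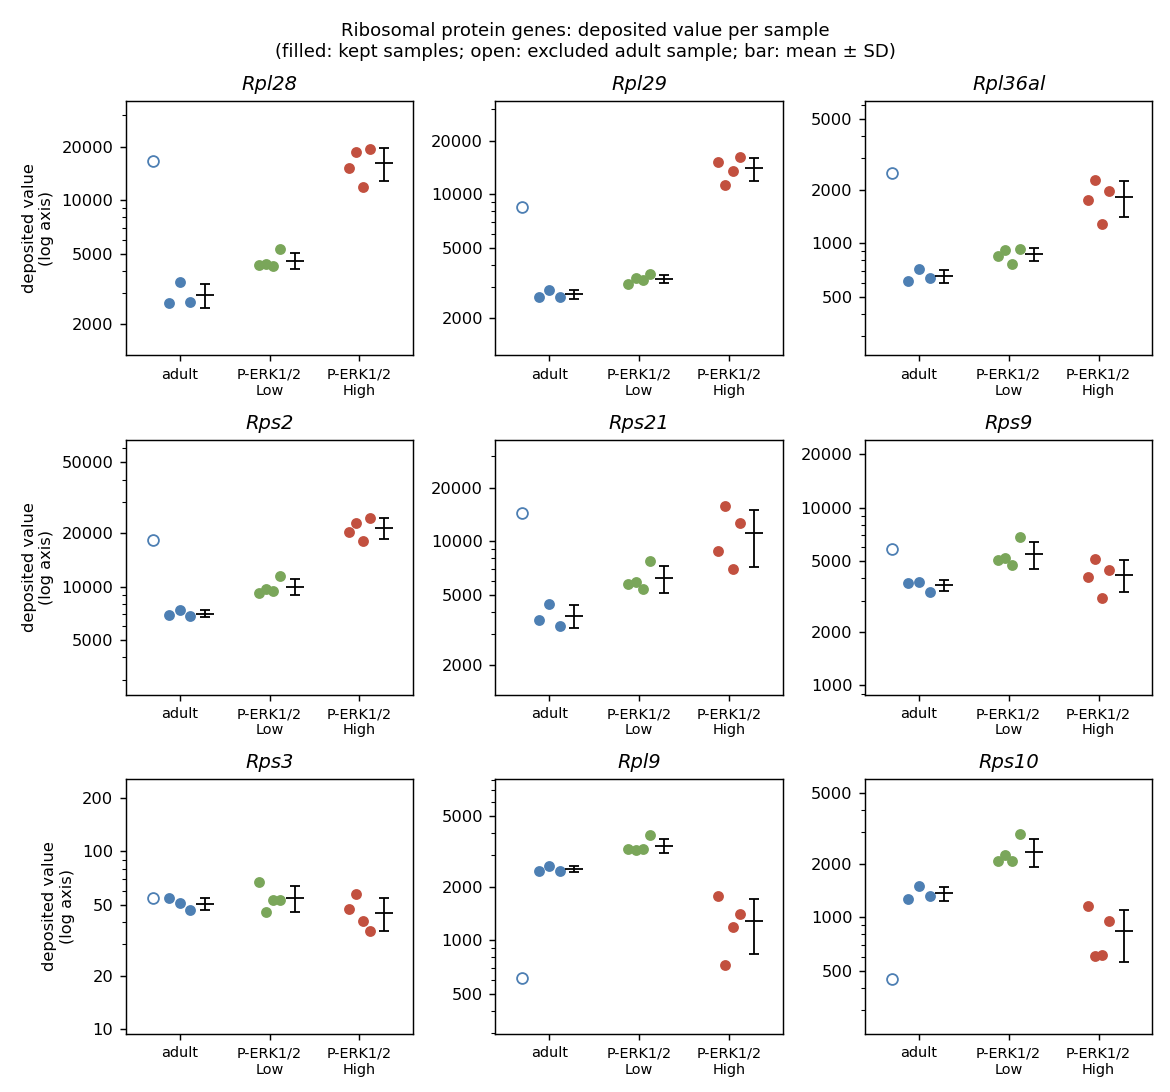
Deposited value (log axis) of each ribosomal protein gene in every sample, by group. Filled points are the 3 adult, 4 P-ERK1/2 Low and 4 P-ERK1/2 High samples, bars are the mean and SD of those samples, and the open point is adult sample 11, which lay with or beyond the P-ERK1/2 High samples for Rpl28 at 16697 and for Rpl9 at 616.

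Among the large subunit genes, Rpl28 and Rpl29 had the largest increases of the 9 genes. For Rpl28 the deposited values were 15149, 18688, 11859 and 19386 in High samples 2, 5, 7 and 8. In Low samples 3, 6, 9 and 12 they were 4313, 4361, 4270 and 5280, and in adult samples 1, 4 and 10 they were 2650, 3467 and 2659. Each High sample lay above each Low sample, and each of these above each adult sample. The fold between High and Low was 3.52, a log2 fold change of 1.82 ± 0.23 (SE) with an adjusted p of 6e-05 in limma (n = 4 and 4).

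Rpl29, which encodes a small basic protein on the surface of the large subunit, had values of 15085, 11326, 13462 and 16093 in the High samples. They were 3114, 3390, 3309 and 3544 in Low and 2650, 2908 and 2646 in adult. Low and adult samples lay close together without overlap, and the High samples stood far above both. The log2 fold change against Low was 2.06 ± 0.21 (SE), 4.16-fold, with an adjusted p of 1.3e-05 in limma (n = 4 and 4).

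Rpl36al, whose protein is nearly identical to that of Rpl36a, ranged from 1279 to 2261 in High and from 768 to 923 in Low. Its log2 fold change of 1.04 ± 0.23 (SE; limma, adjusted p = 0.0028) lay just past the fold limit, and fell just under it without High sample 5 (0.92), High sample 8 (0.99) or Low sample 9 (0.98). The call was also lost with other scalings, at 0.78 with median-of-ratios scaling, 0.44 with quantile normalization and 0.01 with total counts. Rpl36a is not on the panel, and ribosomal protein genes in general have many processed pseudogenes; whether the probes also bound transcripts of such relatives is uncertain.

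Rpl9, whose protein lies in the large subunit near the site where elongation factors bind, went the other way. Its deposited values were 1772, 725, 1191 and 1411 in High, 3276, 3229, 3248 and 3893 in Low, and 2453, 2629 and 2446 in adult. All 4 High samples lay below all adult samples, which in turn lay below all Low samples. The log2 fold change of High against Low was -1.49 ± 0.28 (SE; limma, adjusted p = 0.00094, n = 4 and 4), and it turned to 0.19 in counts with no scaling and to 0.50 after scaling to the positive controls.

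In the small subunit, Rps10 followed Rpl9. Rps10, which sits near the mRNA entry region of the ribosome and is ubiquitinated when ribosomes collide, had values of 1155, 604, 610 and 953 in High. In Low the values were 2067, 2226, 2076 and 2941, and in adult they were 1259, 1501 and 1314. The groups did not overlap and stood in the same order as for Rpl9. The log2 fold change was -1.53 ± 0.27 (SE; limma, adjusted p = 0.00063, n = 4 and 4), and it turned to 0.15 in counts with no scaling and to 0.46 after scaling to the positive controls.

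Rps2, a protein of the mRNA entry channel, had deposited values of 17979 to 24486 in High, 9240 to 11544 in Low and 6814 to 7393 in adult. Its log2 fold change between the aged groups was 1.10 ± 0.21 (SE; limma, adjusted p = 0.001), which was 0.07 when samples were scaled to their total counts. For Rps21, a small protein of the 40S subunit, the values of 6999 to 15718 in High overlapped those of 5388 to 7729 in Low. The difference of 0.78 ± 0.28 (SE) in log2 had an adjusted p of 0.032 in limma but missed the call, and was -0.25 with total count scaling.

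Rps9, a protein that binds early in the assembly of the small subunit, ranged from 3125 to 5153 in High and from 4754 to 6843 in Low. The groups overlapped, and the 95% interval of the log2 difference ran from -0.90 to 0.12. Rps3, which also lines the mRNA entry channel and has a known role in DNA repair, was measured at only 28 to 81 counts in High and 13 to 20 counts in Low. Its deposited values of 35.5 to 57.9 and 45.6 to 67.8 overlapped, and the log2 difference of -0.28 (95% interval -0.79 to 0.22) was not detectable at this depth, as all Low values were below background. The depth of the other 8 genes was at least 225 counts in every sample.

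**Figure D2:**
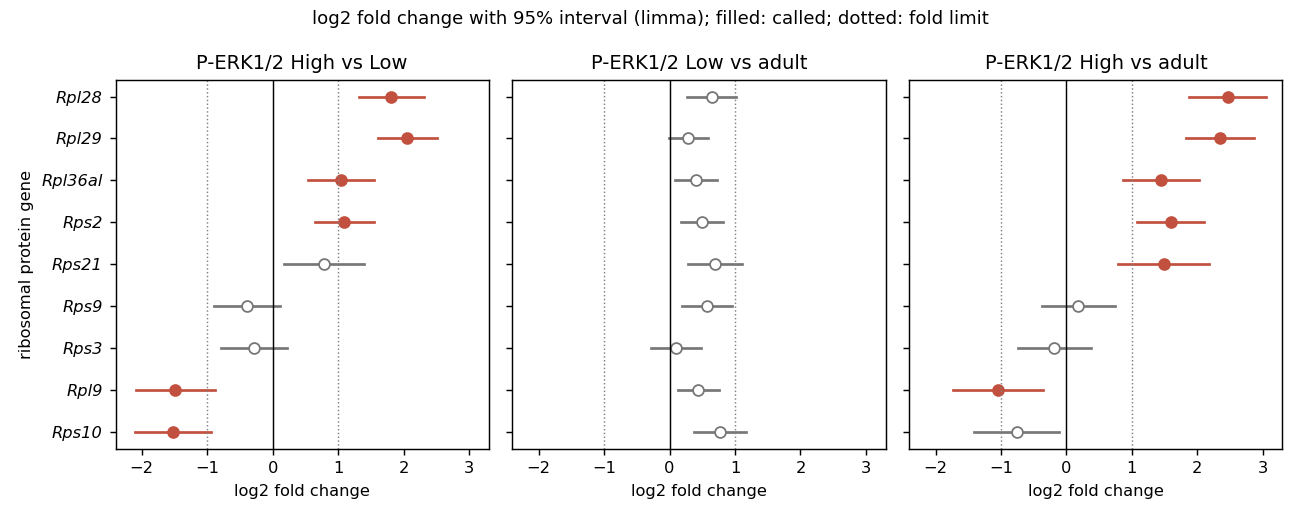
log2 fold change of each ribosomal protein gene in the 3 comparisons of deposited values, with 95% intervals from limma. Filled points were called; between the aged groups the changes ran from -1.53 for Rps10 to 2.06 for Rpl29, with the negative values of Rpl9 and Rps10 turning positive in counts with no scaling.

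Between Low microglia of aged mice and adult microglia, none of the 9 genes was called, where 8.05% of all genes were called higher and 2.73% called lower. In limma, 7 of the 9 genes were higher at an unadjusted p under 0.05 and 0 lower, beside 26.8% and 12.5% of all genes, and edgeR called 0. With no fold limit, 6 of them passed at an adjusted p under 0.05, all higher, beside 18.8% of all genes higher and 7.27% lower. All 9 log2 fold changes were positive in the deposited values, from 0.10 for Rps3 to 0.76 for Rps10, with a median of 0.50 beside 0.10 over all genes, and all 9 were negative in counts with no scaling. For 8 genes every Low value lay above every adult value, as in 26.1% of all genes higher without overlap, and for 0 genes below, as in 10.4%. The 6 genes with an adjusted p under 0.05 were Rpl28, Rpl9, Rps2, Rps9, Rps10 and Rps21, with log2 fold changes of 0.65, 0.44, 0.50, 0.57, 0.76 and 0.70. The sizes depended on the scaling. With total count scaling they were 0.26, 0.05, 0.11, 0.18, 0.38 and 0.31 in the same order, beside a median of -0.28 over all genes. The adjusted p-values depended on single samples. With 1 sample left out, 0 to 4 of the 9 kept an adjusted p under 0.05, with 0 without adult sample 1 or adult sample 10, 4 without Low sample 9 and 3 without any of the other samples. All genes stood at 16.4% without adult sample 1, 17.8% without adult sample 10 and 20.9% to 23.5% without the others. Rpl9, at 0.072 to 0.14, and Rps2, at 0.055 to 0.1, missed it whichever sample was left out, and Rps9 held it only without Low sample 9 (0.048). Rpl29 and Rpl36al, which rose in High, had adjusted p-values of 0.14 and 0.071 here, with 95% intervals of -0.01 to 0.58 and 0.08 to 0.73.

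Against the adult samples, High microglia had 5 ribosomal protein genes called higher, beside 29.2% of all genes, and 1 called lower, beside 7.66%. The values of 5 genes were higher without overlap, as in 35.1% of all genes, and those of 2 were lower without overlap, as in 15.2%. The genes called higher were Rpl28 at a log2 fold change of 2.46 ± 0.27 (SE), Rpl29 at 2.34 ± 0.24, Rps2 at 1.59 ± 0.23, Rps21 at 1.48 ± 0.31 and Rpl36al at 1.44 ± 0.26. These increases were 2.72-fold for Rpl36al to 5.50-fold for Rpl28. With total count scaling Rpl28 alone was called higher, with Rpl29 at 0.93, Rps2 at 0.18, Rps21 at 0.07 and Rpl36al at 0.03, and Rpl9, Rps10, Rps3 and Rps9 were called lower, beside 5.19% of all genes higher and 47.0% lower. With quantile normalization Rpl28 and Rpl29 were called higher and Rpl9 and Rps10 lower, beside 18.7% and 18.1%, while Rps2 was at 0.10. With adult sample 11 included, Rpl28, Rpl29 and Rps2 were called higher and 0 lower, beside 6.36% and 0.0% of all genes, so that the calls of Rpl36al, Rps21 and Rpl9 were lost. Rpl9 was called lower at -1.05 ± 0.31 (SE; limma, adjusted p = 0.018), which was lost without any 1 of High samples 5, 7 and 8 or adult samples 1, 4 and 10, at -0.80 to -1.12, and became 0.13 after scaling to the positive controls. Rps10 was at -0.76 ± 0.29 and not called (limma, adjusted p = 0.052), with 0.06 in counts with no scaling. Rps3 and Rps9 differed by -0.18 and 0.18, with 95% intervals of -0.74 to 0.37 and -0.38 to 0.74. This comparison and that of Low share the 3 adult samples, and it shares the High samples with the comparison of the aged groups.

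The order of the groups differed between genes. For Rpl28, Rpl29, Rpl36al and Rps2, the order of the deposited values was adult, Low and High, with no overlap between neighbours, although the step from adult to Low was not called for any of them. For Rps21 the order was the same but the aged groups overlapped. For Rpl9 and Rps10 it was High, adult and Low, again with no overlap. For Rps9, Low lay above adult, and High overlapped both. For Rps3 all 3 groups overlapped.

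How the samples were scaled set the direction for most of the genes, so the same fold changes were computed under 7 scalings. Over all 770 genes, the median log2 difference of High from Low was 0.26 as deposited, -0.75 with total count scaling, 0.00 with median-of-ratios scaling, -0.11 with quantile normalization, 0.80 with the 6 most stable housekeeping genes, 1.86 in counts with no scaling and 2.15 with positive control scaling. Calls across all genes were 74.6% higher as deposited, 15.9% higher with total count scaling and 99.8% higher in counts with no scaling. Rpl28 stayed between 0.79 and 3.81 and Rpl29 between 1.03 and 4.05 across the 7 scalings. Rpl36al and Rps2 were also positive in all 7, but at 0.01 and 0.07 with total count scaling. The calls moved with them. With total count scaling Rpl29 alone was called higher, Rpl28 at 0.79 missing the fold limit, and Rps9 at -1.42 was called lower besides Rpl9 and Rps10. Rps3 was called lower as well, but from Low counts that were all below background. This stood beside 7.66% of all genes higher and 40.4% lower. With the 6 most stable housekeeping genes 5 genes were called higher, Rps21 among them, and 0 lower, as Rpl9 at -0.94 and Rps10 at -0.98 missed the fold limit, beside 40.3% and 1.04% of all genes. With median-of-ratios scaling and with quantile normalization, Rpl28 and Rpl29 were called higher and Rpl9 and Rps10 lower. All genes stood at 23.0% higher and 15.7% lower in the former and at 19.2% and 18.4% in the latter. With no scaling and with positive controls 7 genes were called higher, beside 77.3% and 85.6% of all genes. Rps21 turned negative with total count scaling, and Rps3 and Rps9 turned positive with the 6 most stable housekeeping genes, with no scaling and with positive control scaling. All but quantile normalization multiply a sample by 1 factor, so that the distance of a gene from the median of all genes was nearly fixed across them.

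**Figure D3:**
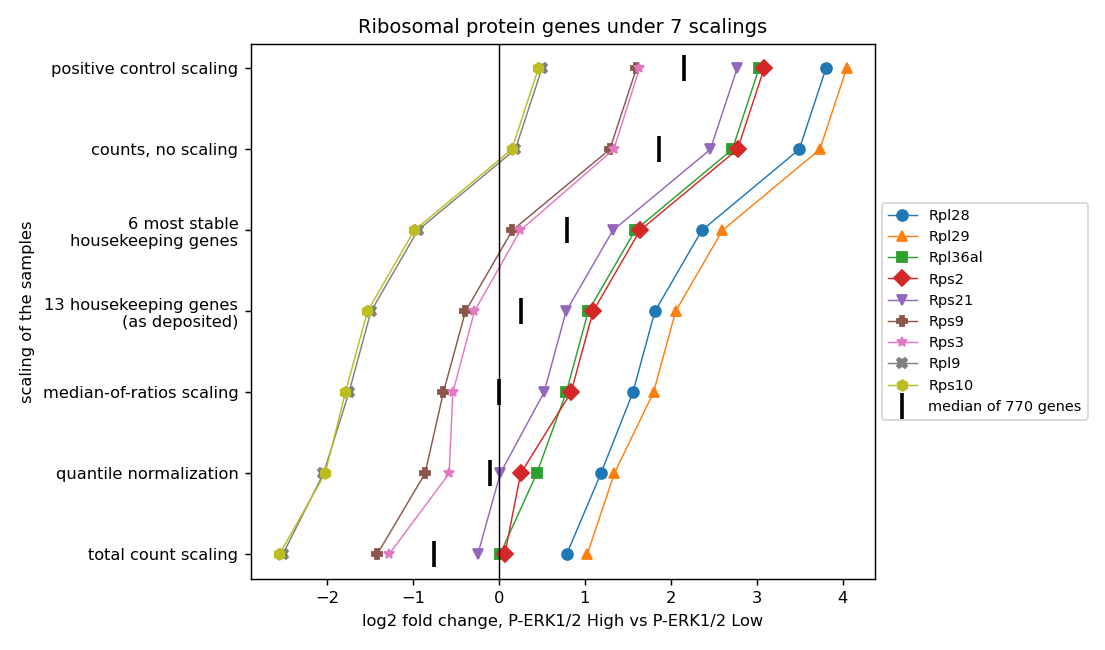
log2 fold change of each ribosomal protein gene in P-ERK1/2 High against Low microglia under 7 scalings of the samples, with the median of all 770 genes as a black bar. Rpl28 and Rpl29 were positive in all 7, and Rpl9 and Rps10 were negative in 5 and positive in counts with no scaling and with positive control scaling.

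A ratio of 2 genes within 1 sample is the same under every scaling that multiplies the sample by 1 factor, but not under quantile normalization. Of the 36 pairs of ribosomal protein genes, 30 had ratios that did not overlap between High and Low, which was 83.3% of the pairs beside 49.0% of the 296065 pairs of all genes. Between High and adult it was 29 pairs, 80.6% beside 51.1%. Between Low and adult it was 13 pairs, 36.1% beside 35.3%, which became 20 pairs, 55.6% beside 40.2%, without Low sample 3 and 21 pairs, 58.3% beside 51.2%, without adult sample 4. With adult sample 11 included, 9 of the 36 pairs did not overlap between High and adult, beside 9.94% of all pairs, and 9 between Low and adult, beside 16.2%. Pairs share genes and are no independent observations. Rps3, which was below background in every Low sample, was in 8 of the 36 pairs, and 7 of these were among the 30. Over the 356 genes above background in all 11 kept samples, which include the other 8 ribosomal protein genes, 23 of 28 pairs did not overlap between High and Low, 82.1% beside 63.3% of all such pairs. Between High and adult it was 22 pairs, 78.6% beside 64.1%, and between Low and adult 11 pairs, 39.3% beside 53.3%.

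Rpl28 over Rpl9 showed the shift plainly. The ratio of their counts was 8.55, 25.8, 9.95 and 13.7 in High samples 2, 5, 7 and 8, against 1.32, 1.35, 1.31 and 1.36 in Low samples 3, 6, 9 and 12. It was 1.08, 1.32 and 1.09 in adult samples 1, 4 and 10, so adult and Low overlapped and High stood apart. The highest ratio belonged to the deepest sample in High, number 5, and among the kept adult samples, number 4. In Low the ratios of 1.31 to 1.36 lay too close together for their order to be read against depth. Adult sample 11, at a depth close to that of High sample 5, had a ratio of 27.1. The part of depth or RNA quality in this ratio was not tested.

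**Figure D4:**
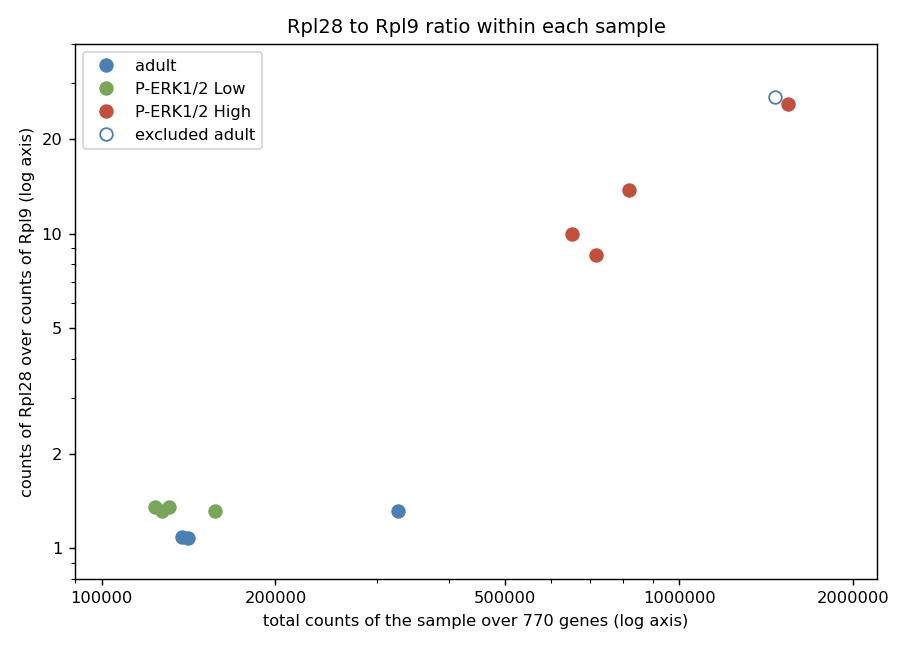
Counts of Rpl28 over counts of Rpl9 within each sample (log axis) against the total counts of the sample (log axis). P-ERK1/2 Low and kept adult samples lie at 1.08 to 1.36, P-ERK1/2 High samples at 8.55 to 25.8, and the excluded adult sample, the open point, at 27.1.

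Other ratios overlapped between the aged groups. Rps2 over Rpl36al was 10.1 to 14.1 in High, 10.6 to 12.5 in Low and 10.3 to 11.4 in adult, and Rpl9 over Rps10 was 1.20 to 1.95, 1.32 to 1.58 and 1.75 to 1.95. In log2, High minus Low was -0.06 for Rpl36al over Rps2, 0.04 for Rpl9 over Rps10 and -0.24 for Rpl28 over Rpl29, all with overlap. The other pairs that overlapped between the aged groups were Rpl36al with Rps21, Rps2 with Rps21, and Rps3 with Rps9. By these ratios Rpl28 and Rpl29 stood highest in High relative to the rest, Rpl36al, Rps2 and Rps21 next, then Rps9, and Rpl9 and Rps10 last, with Rps3 left out for its counts below background in Low.

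The unscaled counts carry the same within-sample ratios, so they restate this shift gene by gene. Between High and Low the mean total count differed 6.92-fold, that of Rpl29 13.3-fold and that of Rpl28 11.9-fold, while Rps2 at 7.09-fold and Rpl36al at 7.11-fold went with the total. Rpl9 at 1.15-fold and Rps10 at 1.13-fold hardly differed. Rpl9 was counted 1015 to 1456 times in the High samples and 921 to 1214 times in the Low samples, a span of 1.58-fold over the 8 aged samples, where the total counts spanned 12.4-fold. The unscaled counts of 7 of the 9 genes were higher without overlap in High, as in 80.1% of all genes, and those of 0 were lower, as in 0.13%. Rpl9 and Rps10 were the 2 that overlapped.

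Summed over the 9 genes, the share of all counts was close between groups. It was 7.61% ± 0.39 (SD, n = 4) in High, 7.95% ± 0.33 (SD, n = 4) in Low and 7.14% ± 0.35 (SD, n = 3) in adult. By sample it ran from 7.03% to 7.87%, from 7.64% to 8.42% and from 6.82% to 7.51%, so that High overlapped both other groups, while Low and adult did not overlap. Adult sample 11 had 5.93%. The 95% Wilson intervals extended 0.04 to 0.15 percentage points either side and cover counting error only.

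What filled this share did change. Rpl28 took 22.8% ± 1.5 (SD) of the counts of the 9 genes in High and 12.6% ± 0.2 in Low, and Rpl29 took 20.1% ± 4.0 and 9.28% ± 0.72. The part of Rps9 was 5.91% ± 0.54 against 15.0% ± 0.7, that of Rpl9 1.84% ± 0.70 against 9.45% ± 0.33, and that of Rps10 1.18% ± 0.38 against 6.40% ± 0.34 (n = 4 each). In these shares, Rpl28, Rpl29 and Rps2 were higher in High without overlap, where the counts of 14.8% of all genes were higher when set over the summed counts of the 9 genes. Rps3, Rps9, Rpl9 and Rps10 were lower without overlap, as were 42.9% of all genes on that measure, Rps3 with all Low counts below background. Large subunit genes together held 42.6% to 49.5% of the counts of the 9 genes in High, 31.9% to 34.8% in Low and 34.8% to 36.1% in adult. As each probe binds with its own efficiency, these shares describe how the mix of counts shifted and do not rank the transcripts.

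**Figure D5:**
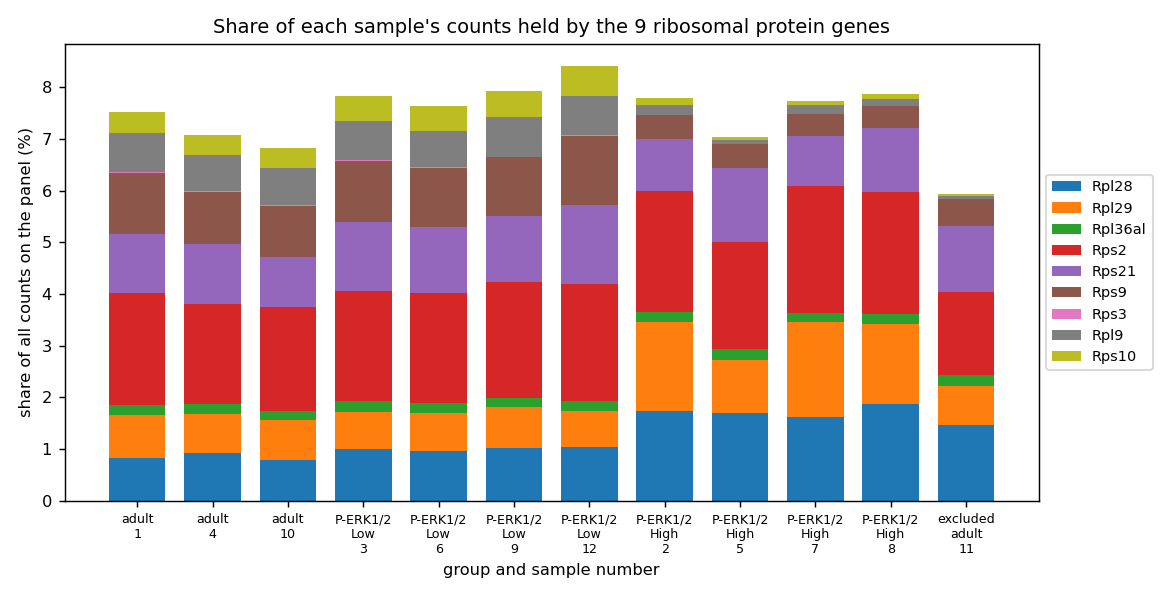
Share of each sample's counts over the 770 genes held by each of the 9 ribosomal protein genes (%), as stacked bars by group and sample number. The bars reach 6.82% to 8.42% in the kept samples, while Rpl28 and Rpl29 are thicker and Rps9, Rpl9 and Rps10 thinner in P-ERK1/2 High than in P-ERK1/2 Low.

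The genes outside the set whose log2 values were most like each member over the 11 kept samples were found by Pearson's r, as a description of points that share group and depth. Man2b1, a lysosomal mannosidase, was most like Rpl28 (r = 0.994) and Rps2 (r = 0.992). Akt1, a kinase of growth signalling, was most like Rpl29 (r = 0.994), Cd84, a receptor of leukocytes, most like Rpl36al (r = 0.989), and Gusb, a lysosomal glucuronidase and housekeeping gene of the panel, most like Rps21 (r = 0.989). Txnrd1, a thioredoxin reductase, was most like Rpl9 (r = 0.994) and Prkaca, the catalytic subunit of protein kinase A, most like Rps10 (r = 0.982). For Rps9 it was Ltbr (r = 0.952), the lymphotoxin beta receptor, and for Rps3 it was Setd1a (r = 0.761), a histone methyltransferase. Rpl9 and Rps10 were each other's most similar member (r = 0.954), and Rpl9 was least like Rpl29 (r = -0.796). Within the groups, Txnrd1 ranged from 769 to 2013 in High, 3143 to 3647 in Low and 2489 to 2789 in adult, the same order as Rpl9.

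Other genes of translation on the panel were few. Of Eif1, Eef2k, Aars, Lars and Mto1, 2 were called higher and 1 lower in High against Low, beside 28.2% and 9.61% of all genes. Their median log2 fold change of 0.85, beside 0.26 over all genes, was -0.17 with total count scaling, where 0 were called higher and 2 lower, beside 7.66% and 40.4% of all genes. With no scaling 4 were called higher and 0 lower, beside 77.3% and 0.13%. Eif1, which helps the ribosome choose the start codon, had a log2 fold change of 1.27 ± 0.20 (SE; limma, adjusted p = 0.0003), and Eef2k, the kinase that slows elongation, 1.71 ± 0.24 (SE; adjusted p = 0.00016), both positive in all 7 scalings. Lars, the leucyl-tRNA synthetase, was at -1.22 ± 0.29 (SE; adjusted p = 0.0038) and turned to 0.44 in counts with no scaling and to 0.75 with positive control scaling. Aars, the alanyl-tRNA synthetase, was at -0.09 ± 0.28. Aars, Lars and Mto1 are also housekeeping genes to which the values were scaled. Between Low and adult, 0 of the 5 were called by limma, with Aars at -0.70 ± 0.14 (SE; adjusted p = 0.0085).

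Of 14 genes of growth signalling, 4 were called higher in High than in Low and 2 lower, a share near the 28.2% and 9.61% of all genes. With total count scaling 2 were called higher and 7 lower, beside 7.66% and 40.4%, and with positive controls 12 and 0, beside 85.6% and 0.0%. The median log2 fold change of 0.20 was -0.82 with total count scaling, and 0 were called between Low and adult. Igf1r, the receptor for insulin-like growth factor, was at 2.43 ± 0.22 (SE), Akt1 at 2.35 ± 0.21, Pik3cg at 1.71 ± 0.29 and Pik3cb, which like Pik3cg encodes a catalytic subunit of PI3K, at 1.26 ± 0.26, all positive in the 7 scalings. Akt2 was lower at -1.29 ± 0.28 and Pik3r1, a regulatory subunit of PI3K, at -1.11 ± 0.24, and with no scaling they were at 0.38 and 0.56. Myc, a transcription factor known to drive ribosome production, was at -0.40 ± 0.24 and not called (limma, adjusted p = 0.17).

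Of the 13 housekeeping genes that set the scaling, 1 was called higher in High than in Low, Supt7l, and 1 lower, Lars, beside 28.2% and 9.61% of all genes, and the median log2 fold change of the 13 was -0.52, which was 1.14 in counts with no scaling. Supt7l, a subunit of a transcription coactivator complex, had deposited values of 681 to 887 in High and 65.6 to 85.6 in Low, where it was above background in 1 of 4 samples. It was not among the 6 most stable genes.

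Markers of the labelled cell type were checked in the same samples. All 8 microglia markers were above background in some High sample and some adult sample, but P2ry12 and Gpr34 were above it in no Low sample. The summed deposited values of the 8 were 2851 to 3544 in High, 3371 to 3692 in Low and 3487 to 3801 in adult, with Csf1r, the receptor that microglia need to survive, at means of 1553, 2745 and 1846. Between High and Low, 4 of the 8 were called higher, beside 28.2% of all genes, and 0 lower. They were P2ry12, Tmem119, Sall1 and Gpr34. Each was above background in all 4 High samples, but P2ry12 and Gpr34 in 0 and Tmem119 and Sall1 in 1 of the 4 Low samples, so that the sizes of their differences are not given. Between Low and adult, 3 were called lower, beside 2.73% of all genes, which were Fcrls at -2.31, Olfml3 at -1.56 and Tmem119, and 0 higher. Among markers of other cells, read against the same 28.2% called higher and 9.61% called lower, the summed values were higher in High than in Low for astrocytes (1411 to 2143 against 580 to 833, 3 of 6 genes called higher), endothelium (622 to 1257 against 207 to 312, 4 of 6) and T and NK cells (281 to 1099 against 160 to 228, 2 of 9). For B cells they were 136 to 303 against 80.6 to 134, with 1 of 3 called higher. Neurons stood at 337 to 563 against 285 to 386, with 2 of 9 called higher and 2 lower, and oligodendrocytes at 310 to 447 against 386 to 498, with 1 of 10 called lower. Neutrophils and mast cells stood at 100.1 to 202 against 161 to 209 with none of 4 called, and border macrophages and monocytes at 164 to 231 against 120 to 168 with 1 of 3 called higher. With total count scaling, where 7.66% of all genes were called higher and 40.4% lower, the calls were 0 higher and 1 lower for microglia, 0 and 2 for astrocytes, 1 and 0 for endothelium, 1 and 1 for T and NK cells, 0 and 2 for B cells, 2 and 6 for neurons, 0 and 4 for oligodendrocytes, 0 and 3 for neutrophils and mast cells, and 0 and 0 for border macrophages and monocytes. In Low, 4 of the 6 astrocyte genes, 5 of the 6 endothelium genes and all 9 T and NK genes were above background in no sample. Of the genes called higher on all lists of other cells, Gja1 and Sox9 were above background in every Low sample and Emcn in 1, while Kcnj10, Cldn5, Flt1, Esam, Cd3e, Cd3g, Blk, Rbfox3, Syn2 and Cd163 were above it in none, so that their calls came through the High values. Of the defining markers, Mog, Cd8a, Ms4a1 and Ly6g were above background in no kept sample. The part of these cells in the values of the ribosomal protein genes was not tested.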

How the data were processed

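Values came from 12 samples of fixed, sorted mouse microglia on the nCounter Neuroinflammation panel. The authors counted 770 genes and normalized them in nSolver; the deposited values are a signal, each raw count multiplied by 1 factor per sample that brought the geometric mean of 13 housekeeping genes to 173, with no background subtracted. All 12 columns were matched to samples by number. Division by the factor gave whole counts for 99.8% of values within 0.1; the 16 exceptions were listed in adult sample 11. Control probes were deposited as counts.

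Each pair of groups was fitted separately in limma 3.58.1 (R 4.3.3) on log2(value + 1) over 770 genes without a filter, two-sided. Genes were called by the study's thresholds, a p under 0.01 with a log2 fold beyond 1, and p-values were also adjusted by the Benjamini-Hochberg method. The log2(value + 1) scale understates changes of low genes. edgeR 4.0.16 on the recovered counts called 288 genes for High against Low (limma 291), 87 for Low against adult (83) and 289 for High against adult (284). Other scalings, pseudocounts, filters, tests and left-out samples were tried as alternatives. The tests were also run on simulated data, and no statement here rests on that run. As no source says how separately the samples were processed, p-values measure the spread between these samples, which may be technical. Named genes were the 9 members, the most similar other gene of each, and lists of translation, growth signalling, housekeeping and marker genes. Members and lists were chosen with earlier results of these data known.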

Additional observations from a re-analysis of the deposited data

Results flagged for a closer look

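Adult sample 11, left out of the comparisons above except where it is named as included, held 7 ribosomal protein genes at deposited values above those of every kept adult sample. They were 16697 for Rpl28, 8491 for Rpl29, 2470 for Rpl36al, 18260 for Rps2, 14422 for Rps21, 55.1 for Rps3 and 5875 for Rps9. Rpl9 at 616 and Rps10 at 448 lay below every kept adult sample and every High sample. This sample was the only adult sample with a total count in the range of High, and its positive controls were the lowest of the 12; the part of either was not tested. Its depth and its ratio of Rpl28 over Rpl9, at 27.1, lay with or beyond those of High and apart from the kept adult samples. Not every gene lay with High. Rpl29, at 8491, was below every High sample, and Rpl36al and Rps9 were above every one. Whether the label of adult sample 11 is right was not tested either.

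In Low, sample 12 stood apart from the other 3 for Rpl28 (5280) and for Rpl9 (3893), with gaps of 0.909 and 0.928 of the group's range against a limit of 0.829 for 4 samples. Its deposited values were also the highest in Low for every other member except Rps3, and its scaling factor, at 4.10, was the largest in Low. In unscaled counts its Rpl28, at 1287, and its Rpl9, at 949, lay within the range of the other Low samples. In High, the summed share of counts of sample 5, at 7.03%, stood apart by 0.84 of the range. Chance sets apart about 1 in 20 such groups.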

How the results depend on the processing

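No paired analysis was made. Each sample has its own number, so the numbers cannot show whether a High and a Low sample came from the same mice. The study split aged microglia by phosphorylated ERK1/2, and whether the High and Low samples share mice is not stated. The tests treated all samples as independent. The number of ribosomal protein genes called between High and Low stayed at 4 to 7 of 9 under 16 alternatives and at 5 to 6 with a sample left out, but the directions moved. The calls were 7 higher and 0 lower with no scaling and with positive controls, 5 and 0 with the 6 stable housekeeping genes, 2 and 2 with median-of-ratios scaling and with quantile normalization, and 1 and 4 with total counts, against 4 and 2 as deposited. The shares of all genes called moved likewise, from 7.66% higher and 40.4% lower with total counts to 85.6% and 0.0% with positive controls. Between High and adult the calls were 5 higher and 1 lower as deposited and 5 and 2 with median-of-ratios scaling. They were 5 and 0 with the 6 stable housekeeping genes and with no scaling, and 6 and 0 with positive controls. With quantile normalization they were 2 and 2, and with total counts 1 and 4. Shares of all genes in this comparison ran from 5.19% higher and 47.0% lower with total counts to 54.5% and 0.13% with positive controls. Subtracting background, scaling to the positive controls and all alternatives for gene pairs were chosen after seeing the data.

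Between the aged groups, values turned to 0.19 (Rpl9), 0.15 (Rps10), 1.34 (Rps3) and 1.29 (Rps9) in counts with no scaling. With positive controls they turned to 0.50, 0.46, 1.64 and 1.60. With the 6 stable housekeeping genes Rps3 was 0.25 and Rps9 0.16. Rps21 was -0.25 with total counts, and Rps3 1.39 with background subtracted. Between Low and adult, counts with no scaling gave -0.21 (Rpl28), -0.57 (Rpl29), -0.45 (Rpl36al), -0.41 (Rpl9), -0.089 (Rps10), -0.36 (Rps2), -0.15 (Rps21), -0.72 (Rps3) and -0.28 (Rps9). Positive controls gave -0.17, -0.53, -0.41, -0.38, -0.05, -0.32, -0.12, -0.68 and -0.25 in the same order. Rpl29 was -0.044 and Rps2 -0.15 with quantile normalization, Rpl29 -0.10 and Rps3 -0.28 with total counts, and Rps3 -0.019 with median-of-ratios scaling, -0.31 with background subtracted and -0.003 to 0.184 with a sample left out, the lowest without Low sample 3. With all 4 adult samples Rpl29 was -0.12 and Rpl36al -0.078. Between High and adult, Rpl9 was 0.13 with positive controls, Rps10 0.062 with no scaling and 0.41 with positive controls, and Rps3 0.36 with the 6 stable housekeeping genes, 0.62 with no scaling, 1.08 with background subtracted and 0.96 with positive controls. Rps9 was -0.20 with median-of-ratios scaling, -0.84 with quantile normalization and -1.24 with total counts.

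An adjusted p under 0.05 with no fold limit called 6 genes between Low and adult, all higher, beside 201 of all 770 genes in either direction. With all 4 adult samples, 3 genes were called between High and adult (Rpl28, Rpl29 and Rps2), beside 6.36% of all genes, and 9 of 36 pairs had ratios without overlap, beside 9.94% of all pairs. With a sample left out, pairs without overlap numbered 13 to 21 for Low against adult, with 20 without Low sample 3 (55.6% beside 40.2% of all pairs) and 21 without adult sample 4 (58.3% beside 51.2%). By construction the summed share fell when a gene was removed. In High it was 5.88% without Rpl28, 6.07% without Rpl29, 5.30% without Rps2, 6.45% without Rps21 and 7.16% without Rps9. In Low it was 6.95% without Rpl28, 7.21% without Rpl29, 7.20% without Rpl9, 7.44% without Rps10, 5.76% without Rps2, 6.60% without Rps21 and 6.75% without Rps9. In adult it was 6.30%, 6.35%, 6.41%, 6.75%, 5.10%, 6.05% and 6.08% without the same genes.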
